A study of Apocynum venetum with 18 samples.

Results

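A set of 419 leaf transcripts of Apocynum venetum stood high after 6 h in salt solution and low after 48 h, with the 0 h level between them. They were chosen by measured values from 45222 assembled transcripts that passed a filter on low counts, and made up 0.927% of these and 0.783% of all 53545 in the tables. Levels are in CPM, the usual count scaled to the size of its library, with library sizes adjusted by the trimmed mean of M-values (TMM). A member had a 6 h mean of at least 5 CPM and at least 2 times its 0 h mean, a 48 h mean of at most 0.5 times its 0 h mean, every 6 h library above every 48 h library, and a mean over the 18 libraries under 700 CPM. The 6 h, 48 h and 0 h values are therefore given as a description. Tests are read only among 2 h, 12 h and 24 h, which the rule used only through the mean over 18 libraries. Calls against 0 h are listed for orientation only.

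The 18 libraries came from leaf tissue, 3 at each of 6 sampling times between 0 h and 48 h, from plants that the labels call wild P. apocinae, with no age or further genotype stated. Every group, 0 h included, is labelled with a nutrient solution that contained 300 mmol/L NaCl. The design text speaks of unsalted plants, but no library carries such a label, so time in salt, handling and, if it differed, hour of day cannot be told apart. The labels do not tie libraries to separate plants, and p-values measure the spread between libraries.

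Apocynum venetum is a fibre and medicinal shrub that grows on saline ground. In plants, a sudden rise in external salt first acts as a lack of water, to which cells respond with closed stomata, slower growth and signalling through abscisic acid. Sodium and chloride then build up in the leaves over a longer time and call for transport into the vacuole and for tolerance of ion load. Early transcript responses to salt are known often to be transient.

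Total estimated counts were 17933939 to 24731213 per library. The TMM factor of the 0 h group ran from 1.11 to 1.16 and that of the 48 h group from 0.744 to 0.844. Without TMM scaling the same rule gave 543 transcripts, of which 374 were members. Replicate 2 of 0 h and replicate 2 of 2 h, as labelled, lay between their groups in earlier results of these data. Over members, the median log2 ratio to the 0 h mean was 0.28, -0.07 and -0.38 in the 0 h libraries. In the 2 h libraries it was -0.08, -0.53 and -0.13, in replicate order. Both ratios of the rule rest on the 0 h mean, which includes replicate 2 of 0 h. No run was made with the labels of these 2 libraries exchanged. Without both libraries, an alternative added after the data were seen, the rule gave 415 transcripts, of which 323 were members. Each transcript is a Trinity contig, assembled from reads without a genome. The deposited annotation columns named 3458 transcripts (6.46%), 22 of them members, and were not used. Of 829 KEGG alignments with a stated length, taken as amino acids, 32.4% were over 1.1 times as long as the transcript they stood on. Members are thus described by level, length, time course and identifier, and the leaf label could not be checked against markers.

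Summed over members, the TMM-scaled level stood highest at 6 h, next at 12 h, near the low end of the 0 h range at 24 h, and lowest at 48 h. Sums are given in replicate order as percent of the nominal CPM total. TMM-scaled CPM do not add up to that total in each library, so the sums are not shares of a library. The sums were 0.895%, 0.773% and 0.507% in the 0 h libraries and 0.806%, 0.472% and 0.755% in the 2 h libraries. They were 2.76%, 1.38% and 1.87% at 6 h, and 1.20%, 1.36% and 1.87% at 12 h. At 24 h the sums were 0.471%, 0.535% and 0.491%, and at 48 h they were 0.218%, 0.187% and 0.211%. On this scale the 6 h and 12 h libraries lay above all others, the 48 h libraries lay below all others, and the 0 h, 2 h and 24 h ranges overlapped. The overlap of 24 h with 0 h belongs to the TMM scale. TMM factors were 0.866, 0.792 and 1.04 at 24 h and 1.11 to 1.16 at 0 h. Shares of a library's own counts would therefore stand lower at 24 h relative to 0 h. In bulk leaf RNA, fewer cells of a type and less RNA per cell cannot be told apart.

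**Figure D1:**
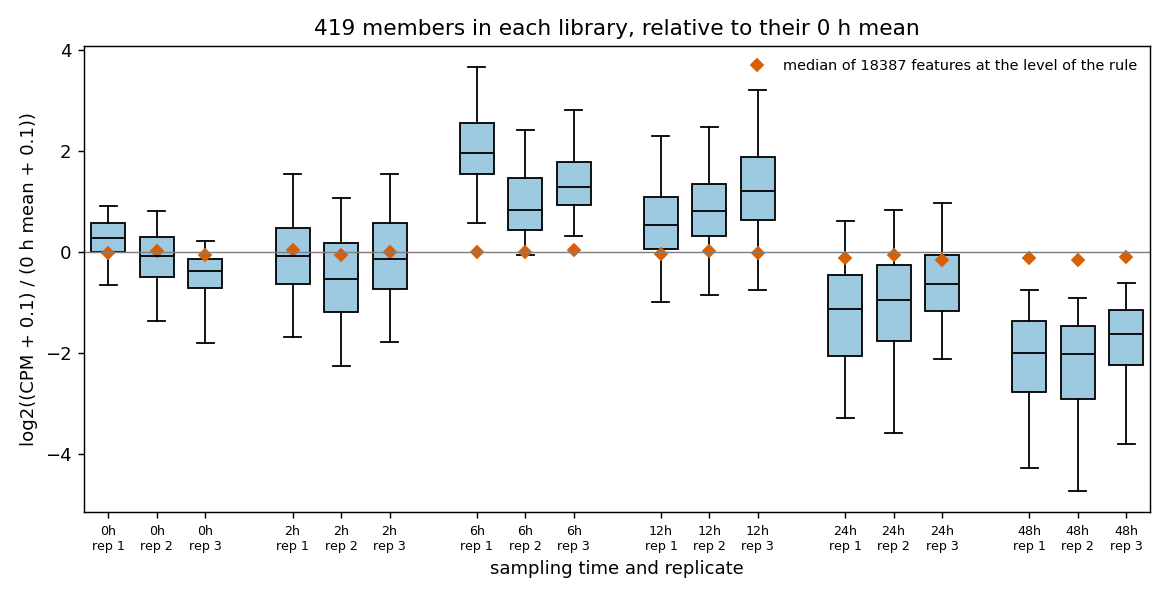
Log2 ratio of each member's CPM in a library to its 0 h mean, with 0.1 CPM added to both, for the 419 members in the 18 libraries. Boxes span the quartiles, lines are medians, whiskers run from the 5th to the 95th percentile, and diamonds are medians of the 18387 transcripts that met both level criteria of the rule; medians of members lie above 0 at 6 h and 12 h and below 0 at 24 h and 48 h.

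The median level over members was 7.44 CPM at 0 h and 7.09 CPM after 2 h. It then stood at 22.1 CPM (6 h), 15.4 CPM (12 h), 4.13 CPM (24 h) and 1.91 CPM (48 h). The median log2 ratio to 0 h, with 0.1 CPM added, was -0.21 for 2 h and 1.47 for 6 h, followed by 0.92 (12 h), -0.79 (24 h) and -1.72 (48 h). Over the 18387 transcripts that met both level criteria, these medians stayed between -0.11 and 0.06. The ratio of the 6 h to the 0 h mean had a median of 2.82 (quartiles 2.31 and 3.96), and that of the 48 h to the 0 h mean a median of 0.286 (quartiles 0.178 and 0.391). By the rule itself every member stood lower at 48 h than at 0 h, and the median ratio of 6 h to 48 h was 11.4 (quartiles 7.28 and 20.4).

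The thresholds ran through a continuous range of values. The member nearest the rise threshold had a 6 h mean of 2.002 times its 0 h mean, and the nearest transcript that missed only this criterion had 1.999 times. At the fall threshold the nearest 48 h means were 0.4983 times the 0 h mean inside and 0.5015 times outside. For the 6 h level they were 5.059 and 4.934 CPM, and for the mean over 18 libraries 479.6 and 784.1 CPM. The rise criterion alone kept out 3523 transcripts, the fall criterion 743, the 6 h level 445, overlap of 6 h and 48 h libraries 8 and the upper limit 2.

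The 6 h mean was the highest of the 6 times in 364 members, the 12 h mean in 48 and the 2 h mean in 7. The 48 h mean was the lowest in 376 members, the 24 h mean in 24, the 2 h mean in 17 and the 12 h mean in 2. At 2 h, 320 members lay between 0.5 and 2 times their 0 h mean, 40 were at or above 2 times and 59 at or below 0.5 times. At 12 h, 377 were above their 0 h mean, 191 of them at 2 times or more. At 24 h, 351 were below it, 170 of them at 0.5 times or less. By fitted log2 change, 48.8% of all transcripts tested were lower than 0 h at 12 h, and 52.5% at 24 h. Most members thus lay between 0.5 and 2 times their 0 h mean at 2 h, above it at 12 h and below it at 24 h. The 0 h mean was part of the rule, so these counts are description only.

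Comparisons that use libraries of the rule are given for orientation only, without a reading of their calls. A call here means that edgeR's quasi-likelihood test gave a log2 change of 1 or more in size and an adjusted p (Benjamini-Hochberg) below 0.05. At 6 h 139 members were called higher than at 0 h (33.2%, against 4.67% of all transcripts tested), and all 6 h libraries lay above all 0 h libraries in 270 (14.2% of all tested did). At 48 h 283 members were called lower than at 0 h (67.5%, against 15.7%), and all 48 h libraries lay below all 0 h libraries in 338 (25.1% of all tested did). Against the same 0 h libraries, 1 member was called higher at 2 h (0.502% of all tested were), 95 at 12 h (10.5%) and 2 at 24 h (14.8%). Called lower were 2 members at 12 h (6.68% of all tested) and 71 at 24 h (12.4%). These comparisons share the 0 h libraries with the rule.

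Between 12 h and 24 h, 174 of the 419 members fell and 0 rose by edgeR's test. The falls were 41.5% of members, while 2.99% of all transcripts tested and 6.09% of those that met both level criteria were called lower, and 1.96% of all tested were called higher. The DESeq2 test and limma on FPKM also called 0 members higher, and 1 member was higher at an unadjusted p under 0.05 in edgeR. Among the called members the median log2 change was -2.24, from -5.44 to -1.07. Over all 419 members the median was -1.77 (quartiles -2.33 and -1.25), with 407 lower, against -0.06 for all transcripts tested. All 24 h libraries lay below all 12 h libraries in 299 members (71.4%), and did so in 16.5% of all transcripts tested and 24.4% of those that met both level criteria. At 24 h the members' median CPM in the 3 libraries was 3.19, 3.65 and 4.72, and at 12 h it was 11.8, 13.7 and 18.6. With 12 h replicate 3 left out the count was 54, and with 24 h replicate 1 left out it was 65, all of them lower.

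From 2 h to 12 h, 102 members rose and 4 fell. The rises were 24.3% of members (4.02% of all transcripts tested, 6.97% of those that met both level criteria), and the falls 0.955% (3.24% and 5.71%). Risen members had a median log2 change of 2.17, from 1.09 to 8.48. Over all members the median was 1.1 (quartiles 0.38 and 1.84), with 358 higher, against -0.02 for all transcripts tested. All 12 h libraries lay above all 2 h libraries in 238 members (56.8%), in 17.6% of all transcripts tested and in 24.0% of those that met both level criteria. The count of 106 calls moved with single libraries. It was 63, 62 and 39 without 2 h replicates 1, 2 and 3, 51 without 12 h replicate 2 and 33 without 12 h replicate 3.

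At 24 h, compared with 2 h, 75 members fell and 7 rose. The falls were 17.9% of members (8.34% of all transcripts tested, 13.1% of those that met both level criteria), and the rises 1.67% (8.14% and 9.89%). The median log2 change over members was -0.66 (quartiles -1.33 and -0.01), with 315 lower, against -0.08 for all transcripts tested. All 24 h libraries lay below all 2 h libraries in 126 members (30.1%), in 20.5% of all transcripts tested and in 27.0% of those that met both level criteria, so that the members' share was near the latter. The 82 calls became 51 without 24 h replicate 1 and 50 without 24 h replicate 2. The 3 comparisons share libraries pairwise and are not independent of each other.

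**Figure D2:**
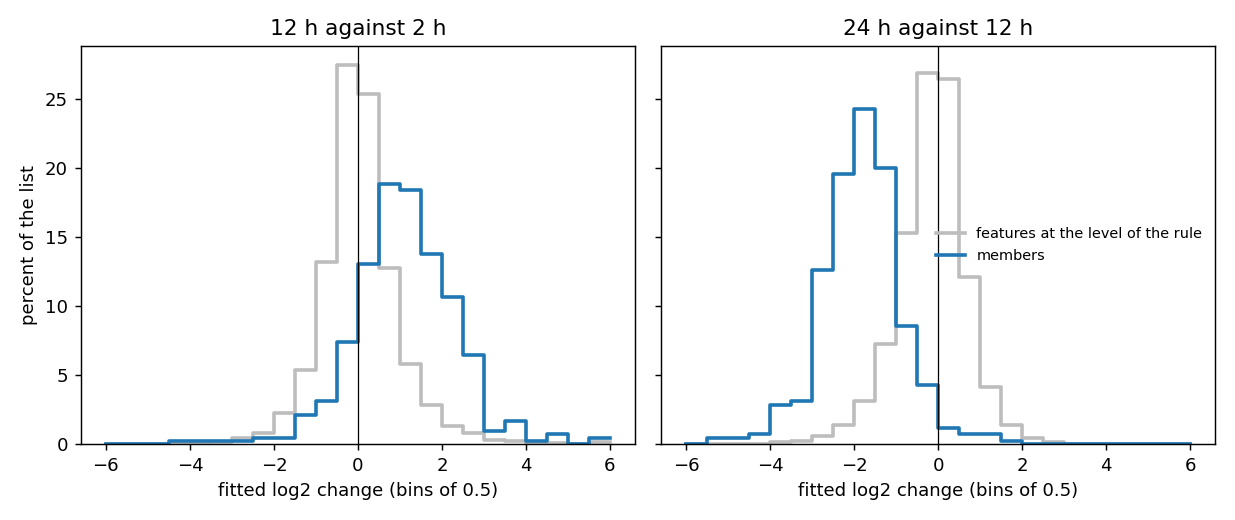
Distribution of fitted log2 changes in bins of 0.5, as percent of each list, for 12 h against 2 h (left) and 24 h against 12 h (right). The 419 members (blue) centre on medians of 1.1 and -1.77, while the 18387 transcripts that met both level criteria (grey) centre near 0.

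Other time courses gave other values in the same comparisons. The mirror rule, with a 6 h mean of at most 0.5 times and a 48 h mean of at least 2 times the 0 h mean, gave 284 transcripts, of which 66 (23.2%) rose from 12 h to 24 h (median log2 change 1.73). The 1982 transcripts that met the rise and the level criteria at 6 h but not the rest of the rule had 42 rises and 265 falls from 12 h to 24 h (13.4% lower, median -0.47). From 2 h to 12 h those 1982 had a median of 1.12, near the 1.1 of the members, and from 2 h to 24 h a median of 0.71, where the members had -0.66. Differences between the lists were not tested.

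The members with the largest rise are described first, chosen among the 236 with at least 10 CPM in every 6 h library. TRINITY_DN7886_c0_g1_i2_6, of 1162 nucleotides, was at 1.84, 4.56 and 2.17 CPM at 0 h, 16.1, 7.31 and 16.8 CPM at 2 h, and 60.8, 36.7 and 49.5 CPM at 6 h. It was at 40.7, 39.3 and 58.7 CPM at 12 h, 2.48, 5.72 and 2.61 CPM at 24 h, and 1.5, 1.97 and 0.768 CPM at 48 h. The 6 h and 12 h libraries overlapped each other and lay above the rest, and the 24 h libraries overlapped those of 0 h. Its 6 h mean was 17.2 times its 0 h mean. It rose from 2 h to 12 h by a log2 change of 1.79 (SE 0.43, adjusted p = 0.016, edgeR quasi-likelihood test). The change from 12 h to 24 h, on the log2 scale, was -3.69 (SE 0.47, adjusted p = 0.0014 in the same edgeR fit, 0.000786 to 0.0134 over 20 alternatives). Compared with 2 h, the 24 h level had changed by -1.90 on the log2 scale (SE 0.44, adjusted p = 0.0065 in that edgeR fit).

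TRINITY_DN16552_c0_g1_i8_2, of 3967 nucleotides, was at 2.86, 3.63 and 0.722 CPM at 0 h, 14.2, 3.82 and 14.1 CPM at 2 h, and 44.2, 25 and 21.3 CPM at 6 h. It was at 13.8, 12.7 and 35.8 CPM at 12 h, 0.432, 2.92 and 1.04 CPM at 24 h, and 0.666, 0.373 and 1.39 CPM at 48 h. The 12 h libraries overlapped both the 6 h and the 2 h libraries, and all lay above the 24 h libraries. Its 6 h mean was 12.6 times its 0 h mean. The change from 12 h to 24 h was -3.84 on the log2 scale (SE 0.77, adjusted p = 0.011, edgeR), and without 12 h replicate 3 it was -3.20 (adjusted p = 0.0516, edgeR). Its change from 2 h to 12 h did not pass the test, at 0.96 on the log2 scale (SE 0.68, adjusted p = 0.43, edgeR).

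The members with the largest fall were chosen among the 115 with at least 10 CPM in every 0 h library. TRINITY_DN2945_c0_g1_i1_2, of 1894 nucleotides, was at 17.6, 14.7 and 11.4 CPM at 0 h, 5.54, 15.0 and 9.66 CPM at 2 h, and 28.8, 29.2 and 35.9 CPM at 6 h. It was at 11.5, 5.95 and 11.6 CPM at 12 h, 2.65, 0.487 and 3.65 CPM at 24 h, and 0.222, 0.0533 and 0.528 CPM at 48 h. Here 6 h stood alone, 12 h overlapped 0 h and 2 h, and 48 h overlapped 24 h alone. Its 0 h mean was 54.4 times its 48 h mean. Between 12 h and 24 h the log2 value changed by -2.08 (SE 0.57, adjusted p = 0.04, edgeR), and over 20 alternatives its adjusted p ran from 0.0311 to 0.131, with 8 past 0.05.

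TRINITY_DN5525_c0_g1_i1_2, of 655 nucleotides, was at 42.4, 11.3 and 27.4 CPM at 0 h, 10.9, 13.3 and 14.7 CPM at 2 h, and 97.5, 32.8 and 35.3 CPM at 6 h. It was at 38.4, 23.6 and 42.2 CPM at 12 h, 3.30, 1.52 and 13.0 CPM at 24 h, and 1.44, 0.693 and 0.720 CPM at 48 h. The 6 h mean rested on replicate 1, since the other two 6 h libraries lay within the 0 h range. Its 0 h mean was 28.4 times its 48 h mean. Between 12 h and 24 h the log2 value changed by -2.53 (SE 0.66, adjusted p = 0.033, edgeR), and over 20 alternatives its adjusted p ran from 0.00751 to 0.133, with 5 past 0.05.

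**Figure D3:**
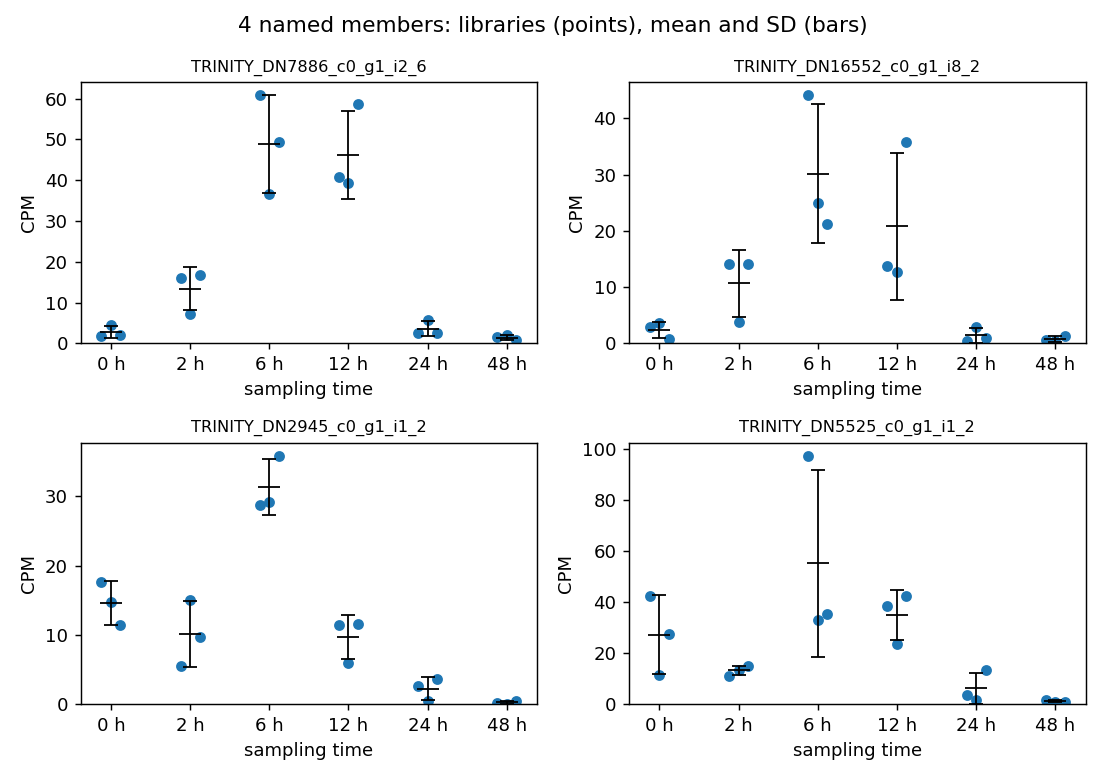
CPM of the 4 named members at the 6 sampling times. Points are libraries, horizontal marks are means and bars are SD (n = 3); TRINITY_DN7886_c0_g1_i2_6 is highest at 6 h and 12 h, while TRINITY_DN2945_c0_g1_i1_2 stands alone at 6 h and is lowest at 48 h.

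The following members were singled out after their values were seen. Per length, the member with the highest level at 6 h had 1603 nucleotides. Its deposited FPKM, a level scaled to length and library size, was 168, 470 and 92.2 at 0 h and 476, 155 and 410 at 2 h. It was 495, 320 and 625 at 6 h and 338, 376 and 437 at 12 h. It was 74.6, 78.9 and 63.1 at 24 h and 43.2, 36.3 and 40.4 at 48 h. Levels at 0 h to 12 h overlapped, and every 24 h and 48 h library lay below them. Replicate 2 of 0 h, at 470, lay between 2 h libraries at 476 and 410. Replicate 2 of 2 h, at 155, lay between 0 h libraries at 168 and 92.2. The change from 12 h to 24 h, on the log2 scale, was -2.18 (SE 0.51, adjusted p = 0.021, edgeR on counts). Over members the 6 h FPKM had a median of 17.1, from 2.04 to 480, and over transcripts that met both level criteria a median of 12.5.

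The 4 members that fell from 2 h to 12 h depended on single libraries. The falls numbered 2 with 2 h replicate 1 left out. Leaving out the third 2 h library, or either the second or the third 12 h library, gave 1 fall each. They numbered 6 without 2 h replicate 2, and 9 with replicate 2 of both 0 h and 2 h left out. One, of 2381 nucleotides, was at 92.0, 43.6 and 89.4 CPM at 2 h, 47.3, 54.8 and 81.0 CPM at 6 h, and 32, 21.3 and 19.4 CPM at 12 h. Its 2 h and 6 h libraries overlapped and all lay above 12 h, with a log2 change of -1.63 from 2 h to 12 h (SE 0.46, adjusted p = 0.035, edgeR). The others had 1550, 1214 and 1200 nucleotides and log2 changes of -3.75, -4.04 and -1.10. In the first of these, 2 h replicate 2 was at 2.03 CPM and the other 2 h libraries at 24.5 and 21.9 CPM. In the second, 2 h replicate 2 was at 0.918 CPM and the others at 9.07 and 11.3 CPM. In both, 2 h replicate 2 lay within or below the 0 h range. The 7 members that rose from 2 h to 24 h had log2 changes of 1.29 to 2.80. Leaving out 2 h replicate 1 gave 3 such rises and leaving out 24 h replicate 2 gave 4, and there were 10 when 6 h replicate 1 was left out.

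In 3 members there were no counts at 48 h, with 6 h means of 8.81, 5.61 and 5.10 CPM and lengths of 1248, 421 and 736 nucleotides. No fold is given for them.

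The 6 h libraries differed in level, and replicate 1 was highest. In 6 h replicate 1, 378 members were at 2 times their 0 h mean or more, in replicate 2 170 and in replicate 3 301, and 127 were so in all 3. The median log2 ratio to the 0 h mean was 1.97, 0.83 and 1.28 in these libraries. Replicate 1 was the highest of the 18 libraries for 296 members (70.6%), and for 14.8% of the transcripts that met both level criteria. By the mean of replicates 2 and 3, 409 members were above their 0 h mean, 239 were at 2 times or more, and the median ratio was 2.17. Without 6 h replicate 1 the rule gave 282 transcripts, 223 of them members, and leaving out 6 h replicate 2 gave 585, of which 411 were members.

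The comparisons among 2 h, 12 h and 24 h were repeated for the 223 members that also met the rule without 6 h replicate 1, a choice made after the data were seen. From 12 h to 24 h 93 of them fell (41.7%, median log2 change -1.77), and of the other 196 members 81 fell (41.3%, median -1.77). At 12 h, relative to 2 h, 53 of the 223 rose (23.8%) and 49 of the 196 (25%). At 24 h, relative to 2 h, 51 of the 223 fell (22.9%) and 24 of the 196 (12.2%).

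Membership also went with the final digit of the identifier, whose meaning is not given in the sources used here. Identifiers ending in 2 belonged to 185 members (44.2%), to 12.3% of all transcripts tested and to 13.4% of those that met both level criteria. Of the transcripts that ended in 2 and met both level criteria, 7.53% were members, and for other digits the share was 0.309% to 2.99%. Among tested transcripts with a mean of at least 1 CPM, those ending in 2 were highest in 6 h replicate 1 in 34.8% of cases. For other digits the most frequent library held 11.6% (digit 4, 6 h replicate 1) to 27.8% (digit 7, 48 h replicate 1). Members ending in 2 were highest in 6 h replicate 1 in 84.3% of cases, against 59.8% of the other 234 members. The rule chose members for high 6 h values, which raises both shares. Among transcripts of the mirror rule the most frequent digit was 7, with 41.2%. The part of the digit in the result was not tested.

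**Figure D4:**
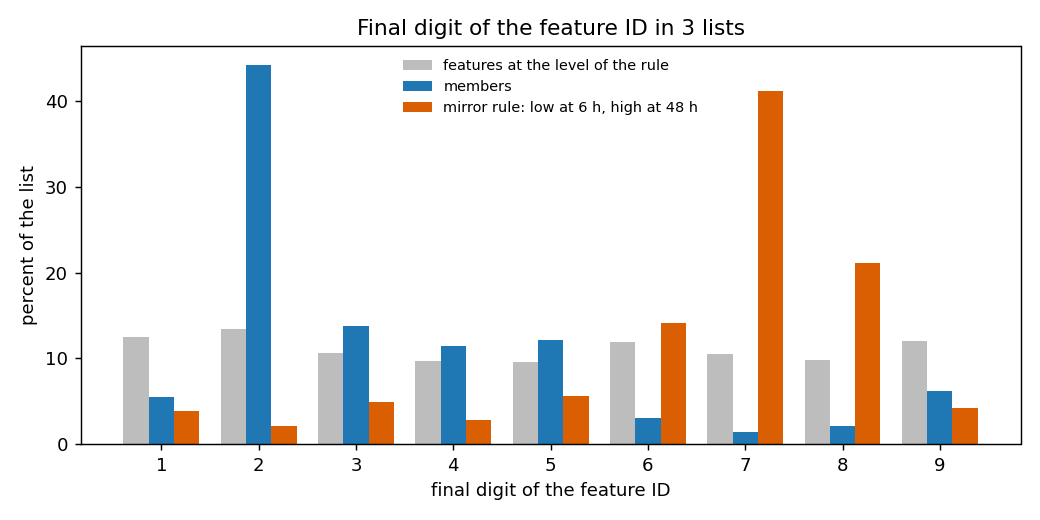
Percent of identifiers with each final digit among transcripts that met both level criteria (grey), the 419 members (blue) and the 284 transcripts of the mirror rule (orange). Digit 2 makes up 44.2% of members and 13.4% of the grey list.

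The times that the rule did not use were compared in members with and without this digit. From 12 h to 24 h 64 of the 185 members ending in 2 fell (34.6%, median log2 change -1.79), and 110 of the other 234 (47.0%, median -1.74). Between 2 h and 12 h 39 rose among those ending in 2 (21.1%, median 1.18) and 63 among the others (26.9%, median 1.06). Between 2 h and 24 h 29 fell among those ending in 2 (15.7%) and 46 among the others (19.7%).

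**Figure D5:**
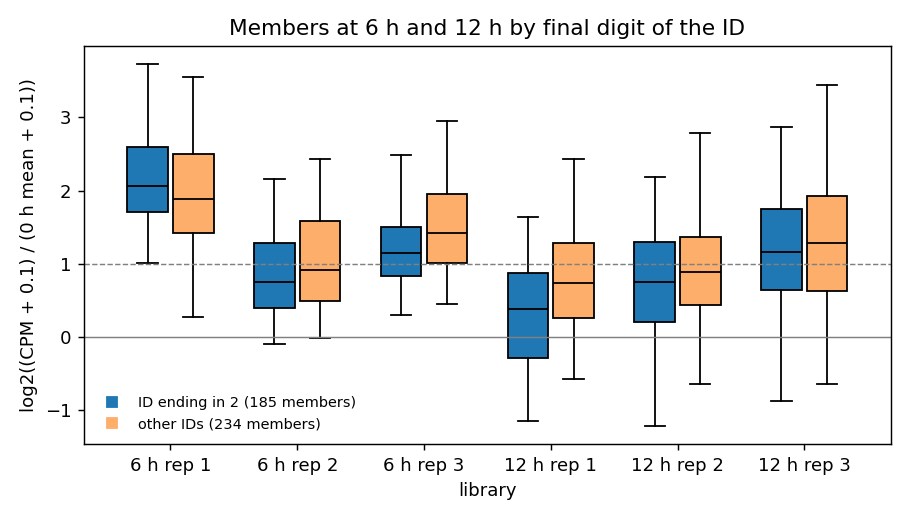
Log2 ratio of member CPM to the 0 h mean, with 0.1 CPM added to both, in the 6 h and 12 h libraries, for 185 members with identifiers ending in 2 (blue) and 234 others (orange). Boxes span the quartiles, lines are medians, whiskers run from the 5th to the 95th percentile, and the dashed line marks 2 times the 0 h mean; 6 h replicate 1 is highest in both sets.

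The rule was also applied with 1 replicate number of every time left out, and the 0 h, 6 h and 48 h libraries of that number were then read. Choice without replicate 1 gave 348 transcripts, of which 241 (69.3%) stood above 0 h at 6 h and below it at 48 h in the libraries left out, against 20.2% of transcripts that met both level criteria. Choice without replicate 2 gave 574, with 389 (67.8%, against 19.3%), and choice without replicate 3 gave 465, with 374 (80.4%, against 22.6%). With the 2-fold thresholds of the rule, the shares were 40.5%, 23.7% and 37.6%, against 2.99%, 2.05% and 2.46%. The 2-fold rise at 6 h alone was kept by 52.9%, 35.5% and 79.1% of chosen transcripts, against 16.1%, 13.0% and 17.8%. The fall threshold alone was kept by 84.8%, 82.9% and 52.5%, against 28.1%, 25.9% and 20.6%. Most chosen transcripts thus kept both directions in libraries whose levels had not chosen them, and fewer kept both thresholds. The filter on low counts and the TMM factors came from all 18 libraries, so those left out were not wholly unused. The libraries left out were also of the times that the rule used, so these shares are description only.

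The members' lengths and assembly groups were also described. Their median length was 1779 nucleotides (quartiles 1180 and 2554, from 318 to 7865), against 2248 for transcripts that met both level criteria and 1009 for all tested. By identifier without the final digit, the 419 members carried 415 Trinity gene numbers and 413 numbers of components, the assembler's groups of linked contigs. The same gene numbers held 536 other tested transcripts, each with another final digit than the member. Of these, 255 stood above 0 h at 6 h, 272 below 0 h at 48 h and 86 (16.0%) both, against 18.2% of all transcripts tested and 22.3% of those that met both level criteria. At 24 h 261 of the 536 (48.7%) were below 12 h, against 52.9% of all transcripts tested by fitted log2 change. Transcripts that shared the gene number but not the digit thus had the members' course about as often as transcripts in general. Whether they are transcripts of the members' genes is not known, so nothing is concluded about the genes.

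The counts differed when the final digit was taken as part of the gene and the component, a choice made after the data were seen. No Trinity gene then held a second transcript, and the members fell into 417 components with 36 other tested transcripts. Of these 36, 31 stood above 0 h at 6 h, 28 below 0 h at 48 h and 23 (63.9%) both. Both held for 18.2% of all transcripts tested and 22.3% of those that met both level criteria. At 24 h 29 of the 36 were below 12 h, against 52.9% of all tested by fitted log2 change. Whether equal gene numbers with different digits mark the same gene is not given in the sources used here. Reads can be shared between contigs, so neither set is independent of the members.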

How the data were processed

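The authors' deposited estimated counts, not scaled between libraries, were 89.6% not whole and were rounded. The authors also deposited FPKM for the same transcripts, and count over FPKM gave lengths. Per the file headers and identifiers, features were Trinity contigs; for the aligner and counter, the sources used here give no name. Members and lists were chosen with earlier results of these data known.

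Transcripts were filtered with filterByExpr by time (45222 kept) and TMM-scaled, and 1 model of the 6 times was fitted to 18 libraries with edgeR 4.0.16 (R 4.3.3). Calls needed a log2 change of 1 or more in size and a Benjamini-Hochberg adjusted p below 0.05 over all transcripts tested. The SE was the log2 change over the square root of F. The fit was tested on simulated data. Named transcripts were the 2 members with the largest ratio of 6 h to 0 h and the 2 with the smallest ratio of 48 h to 0 h, at 10 CPM or more in every 6 h or 0 h library. The planned comparison with other transcripts of the same Trinity gene number ignored the final digit of the identifier. One of components that kept the digit was added after the data were seen. Alternatives used DESeq2 1.42.0, limma 3.58.1 on FPKM, other filters and thresholds, and left-out libraries. Tables were made with Python 3.11.15.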

Additional observations from a re-analysis of the deposited data

How the results depend on the processing

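The rule gave 395 transcripts with DESeq2 size factors, 523 with deposited FPKM, 993 with ratios of 1.5, 103 with ratios of 3, 325 with a minimum of 10 CPM at 6 h and 739 with 1 CPM, and 282 to 585 when 1 library was left out. Members called from 12 h to 24 h were 174, and 54 to 201 with 1 library left out. From 2 h to 12 h they were 106, with a range of 33 to 128, and 169 by the DESeq2 test. From 2 h to 24 h they were 82, with a range of 50 to 91. Lists cut to members whose identifier does not end in 2 gave 110, 67 and 49 calls in these comparisons, and members that met the rule without 6 h replicate 1 gave 93, 57 and 57; fewer members were counted there. The cause of the other shifts was not tested.

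Libraries with the same replicate number were on average no more alike than others. Same-numbered libraries had a mean correlation of deviations of -0.0261 over 45 pairs, with 5 above 0.1. Differently numbered ones had 0.0129 over 90 pairs, with 19 above 0.1. Such correlations cannot exclude pairing. With the replicate number as a block the calls were 160, 90 and 76. In the comparison of 24 h with 12 h every alternative gave lower calls only, except 1 higher call with only the 6 libraries compared and 1 with replicate 2 of both 0 h and 2 h left out. The named members kept the sign of this change in all 20 alternatives each. With 3 libraries a time and a common dispersion of 0.244, smaller changes could be missed.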
